A study of Mus musculus with 2 samples.

Results

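The collagen genes outside type IV were described in E14 mouse embryonic stem (ES) cells before and after differentiation with retinoic acid. Members were the rows of the gene table whose symbol is COL, a type number, A and a chain number, with type IV left out, and 36 of 34126 genes met that rule. They were 11 fibrillar, 9 fibril-associated, 6 beaded, 3 network and 4 transmembrane collagens, with 3 further genes, Col7a1 of anchoring fibrils and the multiplexins Col15a1 and Col18a1. Each condition is 1 library of poly(A) RNA read on 2 lanes. E14 is a line of strain 129P2/OlaHsd, and both cultures were at passage 29. Undifferentiated cells were kept on mitomycin-treated embryonic fibroblasts with leukaemia inhibitory factor, and the fibroblasts were removed by adsorption before harvest, leaving few by the submitters' visual estimate. Differentiated cells were replated on gelatin without feeders or the factor, exposed to 0.1 µM all-trans retinoic acid and collected after 4.5 days as a mixed population. Col6a5, Col21a1 and Col26a1 had no row under those names. RefSeq gives Emid2 as another name of Col26a1, and that row, which is no member, stood at 1.65 and 2.15 RPKM.

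Collagens are proteins of 3 chains wound into a triple helix, in which glycine recurs at a fixed interval. Fibrillar collagens assemble into the striated fibrils of bone, skin, cartilage and the early embryonic mesenchyme, and fibril-associated collagens with interrupted helices sit on the fibril surface. Type VI forms beaded filaments, types VIII and X form hexagonal networks, type VII anchors basement membranes to the fibrils beneath, and the multiplexins lie in or beside basement membranes.

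The values are reads scaled to model length and sequencing depth (RPKM), so levels may be compared between genes. By the steps in low values, 1 RPKM in a model of 1 kb stood for 32.0 to 37.8 reads of a lane. Both lanes hold the same library, so their spread covers sequencing and read assignment alone. No replicate cultures exist, and no difference below has a test or a replicate check. A gene was counted as higher or lower when it reached 1 RPKM in either library and log2 of (differentiated RPKM + 1) over (undifferentiated RPKM + 1) was at least 1 in size. That scale understates differences of weak genes. As a check of the labels, all 6 pluripotency markers measured were lower after retinoic acid, among them Esrrb (163 and 2.93 RPKM) and Nanog (140 and 2.96 RPKM).

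After retinoic acid 12 collagen genes were higher, 2 were lower and 8 lay inside the limits, out of 22 that reached the floor. Without the pseudocount 2 of the 8, Col8a1 and Col5a3, differed by more than 2-fold. Of the 22, 3 passed only through the undifferentiated library (Col5a3, Col6a4 and Col20a1) and 3 only through the differentiated one (Col8a1, Col11a1 and Col27a1), so a difference in that direction was built into their passing. By the same rule 19.1% of 17899 genes were higher and 8.48% were lower, against 54.5% and 9.09% of the collagens at the floor. The median log2 ratio was 1.05 over the 22 genes and 0.12 over all genes at the floor. With the 14 weak members included it was 0.26, and 0.02 over all 34126 genes. Summed over the members, the level was 120.5 and 111.8 RPKM in the lanes before and 480.7 and 478.4 RPKM in those after differentiation. Most of that difference came from the fibrillar class, whose sum was 32.5 RPKM in the undifferentiated and 294.6 RPKM in the differentiated library. Bulk RNA cannot tell more cells of a collagen-making type from more collagen RNA per cell.

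**Figure D1:**
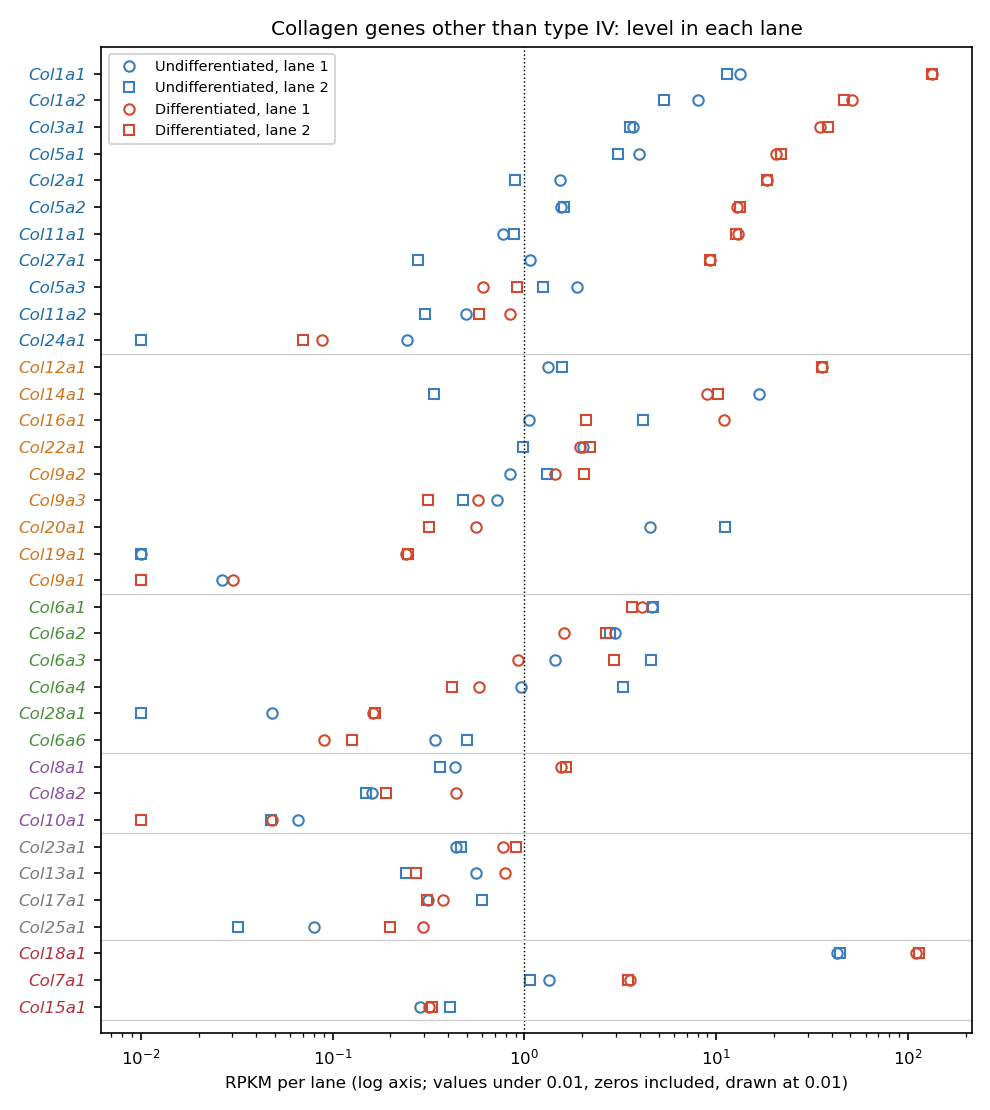
Level of each of the 36 collagen genes in each lane, in RPKM on a log axis, grouped by class (label colours, from fibrillar at the top to anchoring and multiplexin at the bottom). Circles and squares are the 2 lanes of a library and the dotted line marks the floor of 1 RPKM; 8 fibrillar genes lie well to the right after differentiation, while Col6a1 and Col6a2 stay near their starting levels.

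Upstream sequences of 5 higher members are shown so that their promoters can be set side by side. Of these, 4 are fibrillar genes with log2 ratios of 2.29 to 3.02, and Col18a1 has a ratio of 1.35. The 5 were picked after their values were seen. Each is the 250 bases before a RefSeq start, 5′ to 3′, and Col18a1 has a pair of starts. Capitals mark 3 motifs, which were searched on both strands and can stand as their reverse complement. The TATA box was searched as TATAAA. For the CCAAT box the letters of its name were used. The GC box was searched as GGGCGG.

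Col1a2 (GRCm38.p6, chr6:4505368-4505617, plus strand): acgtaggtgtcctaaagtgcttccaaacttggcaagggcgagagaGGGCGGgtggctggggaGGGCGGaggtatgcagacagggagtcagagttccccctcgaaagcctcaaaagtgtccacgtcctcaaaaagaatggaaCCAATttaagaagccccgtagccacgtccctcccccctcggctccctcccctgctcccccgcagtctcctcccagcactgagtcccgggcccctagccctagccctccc
Col3a1 (GRCm38.p6, chr1:45311288-45311537, plus strand): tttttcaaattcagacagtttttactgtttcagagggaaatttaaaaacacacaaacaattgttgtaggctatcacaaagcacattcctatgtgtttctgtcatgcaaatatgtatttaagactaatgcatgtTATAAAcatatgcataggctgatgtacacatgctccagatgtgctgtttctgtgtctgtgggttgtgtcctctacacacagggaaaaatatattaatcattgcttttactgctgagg
Col5a1 (GRCm38.p6, chr2:27886175-27886424, plus strand): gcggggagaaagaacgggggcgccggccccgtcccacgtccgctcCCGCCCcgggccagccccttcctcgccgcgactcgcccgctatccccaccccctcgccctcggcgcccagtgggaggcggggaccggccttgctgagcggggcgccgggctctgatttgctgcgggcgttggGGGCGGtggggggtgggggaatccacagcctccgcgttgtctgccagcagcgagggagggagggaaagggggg
Col11a1 (GRCm38.p6, chr3:114030290-114030539, plus strand): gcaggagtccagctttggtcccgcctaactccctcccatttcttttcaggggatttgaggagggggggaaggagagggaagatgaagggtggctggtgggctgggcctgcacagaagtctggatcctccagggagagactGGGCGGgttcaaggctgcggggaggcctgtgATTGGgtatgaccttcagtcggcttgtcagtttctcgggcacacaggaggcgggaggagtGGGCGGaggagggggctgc
Col18a1 upstream start (GRCm38.p6, chr10:77166531-77166780, minus strand): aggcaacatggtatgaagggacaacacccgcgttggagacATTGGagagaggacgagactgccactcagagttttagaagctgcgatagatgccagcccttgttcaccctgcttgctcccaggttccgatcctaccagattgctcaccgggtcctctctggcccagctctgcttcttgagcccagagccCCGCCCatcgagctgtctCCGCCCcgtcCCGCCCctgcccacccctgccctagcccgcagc
Col18a1 downstream start (GRCm38.p6, chr10:77113706-77113955, minus strand): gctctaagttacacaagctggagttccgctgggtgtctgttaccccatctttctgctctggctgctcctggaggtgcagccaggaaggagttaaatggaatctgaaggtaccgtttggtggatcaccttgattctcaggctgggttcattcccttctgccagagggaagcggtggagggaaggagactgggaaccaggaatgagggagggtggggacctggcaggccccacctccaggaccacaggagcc

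Col3a1 held a TATAAA at position -117 from the start and no CCAAT or GC box, in a window of 35.2% G and C. Col5a1, at 76.4% G and C, held 2 GC boxes and neither other motif. Col1a2 and Col11a1 each held 1 CCAAT box and 2 GC boxes. Col18a1 held 3 GC boxes and 1 CCAAT box before the upstream start and no motif before the downstream start. No motif of the 3 was common to all 5 genes. RefSeq windows were found for 29 of the 36 members, 32 windows in all. GC boxes were present in 56.25% of them and in 32.7% of all 32851 windows, CCAAT boxes in 31.25% and 33.8%, and TATAAA in 15.6% and 12.4%. Median G and C content was 58.6% in the member windows and 52.4% in all. Of the 9 windows of 8 members that were higher, 7 held a GC box, 5 a CCAAT box and 1 a TATAAA. A match is a description of letters and not a binding site.

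The fibrillar class had 8 of 9 genes at the floor higher, none lower and a median log2 ratio of 2.69. Over all genes at the floor 19.1% were higher and 8.48% were lower. Col1a1, the α1 chain of type I collagen, the main collagen of bone, skin and tendon (mm9 chromosome 11, 94797538 to 94814356), stood at 13.3 and 11.3 RPKM before and 134.0 and 132.8 RPKM after. An annotated Rnu2 row spans the whole gene at 12.3 and 9.87 RPKM. Col1a1 was the most abundant member after differentiation, 10.8-fold above its starting level (log2 ratio 3.33). Its partner Col1a2, the α2 chain (chromosome 6, 4455493 to 4491543), stood at 8.03 and 5.34 RPKM before and 51.2 and 46.1 RPKM after (2.69). Lanes of the 2 libraries did not overlap for either gene.

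Type I collagen is mostly a trimer of 2 α1 chains and 1 α2 chain. The ratio of Col1a1 to Col1a2 level was 1.66 and 2.12 in the lanes before and 2.62 and 2.88 in those after. The lane ranges of this ratio did not overlap, but there is 1 culture on each side.

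Col3a1 encodes the single chain of type III collagen, which accompanies type I in soft tissue (chromosome 1, 45368383 to 45406551). It stood at 3.67 and 3.55 RPKM before and 34.6 and 38.2 RPKM after (log2 ratio 3.02). Its level was 0.293 of that of Col1a1 before and 0.273 after, so both differed by nearly the same factor. Col5a2, the α2 chain of the minor fibril component type V, lies 24.6 kb from Col3a1 on the opposite strand with the 3′ ends facing (45431166 to 45560127). It stood at 1.55 and 1.61 RPKM before and 12.8 and 13.4 RPKM after (2.45). Col5a1, the α1 chain of type V (chromosome 2, 27741945 to 27895034), stood at 3.97 and 3.07 RPKM before and 20.6 and 21.8 RPKM after (2.29). Both main type V chains were thus higher together with types I and III, whose fibrils type V nucleates.

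The other type V chain, α3, was not higher. Col5a3 stood at 1.87 and 1.25 RPKM in the undifferentiated and 0.608 and 0.911 RPKM in the differentiated lanes (log2 ratio -0.54), with no overlap between lanes. A predicted gene, Gm7808, is annotated across the whole of Col5a3 on the same strand (1199 and 1044 RPKM), and what share of reads it could take was not tested. Col5a1 exceeded Col5a3 2.25-fold before and 27.9-fold after.

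Fibrillar collagens named for cartilage were higher too. Col2a1, which encodes type II collagen, the main fibril protein of cartilage and one also made by notochord and embryonic epithelia (chromosome 15, 97805402 to 97835155), stood at 1.53 and 0.895 RPKM before and 18.3 and 18.4 RPKM after (3.13). Col11a1, the α1 chain of type XI that copolymerises with type II (chromosome 3, 113733458 to 113923636), stood at 0.777 and 0.878 RPKM before and 12.9 and 12.7 RPKM after (2.92). Both began near the floor, and they differed by 15.1-fold and 15.5-fold without a pseudocount. Col11a2, the α2 chain of type XI, stayed below the floor at 0.399 and 0.709 RPKM, so Col11a1 exceeded it 2.07-fold before and 18.0-fold after. An unnamed transcript, AK132829, lies across the 3′ end of Col11a1 on the other strand, at 0 and 2.26 RPKM, and its reads cannot be told from those of Col11a1, since the library kit does not mark strand.

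Markers of cartilage other than collagens were low. Of 9 genes 3 reached the floor: Sox9, a transcription factor that activates Col2a1 and is also active outside cartilage, was higher (0.668 and 17.8 RPKM), and Acan, the aggrecan gene, and Matn3 lay between (log2 ratios -0.75 and -0.06). Acan stood at 1.64 and 1.36 RPKM before and 0.325 and 0.646 RPKM after, more than 2-fold lower without the pseudocount. It passed the floor only through the undifferentiated library. Comp, Matn1, Hapln1, Chad, Lect1 and Epyc were below 1 RPKM in both libraries. All 7 bone markers, Runx2, Sp7 and Bglap among them, were below the floor.

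Col27a1, a fibrillar collagen of cartilage and other tissues with a short helix (chromosome 4, 62875038 to 62996025), stood at 1.07 and 0.279 RPKM before and 9.24 and 9.27 RPKM after (2.62). Its undifferentiated lanes were 3.82-fold apart, so its fold difference is loosely fixed, but both lay far below the differentiated lanes. Its relative Col24a1 was near 0 in both libraries, at 0.123 and 0.0793 RPKM.

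**Figure D2:**
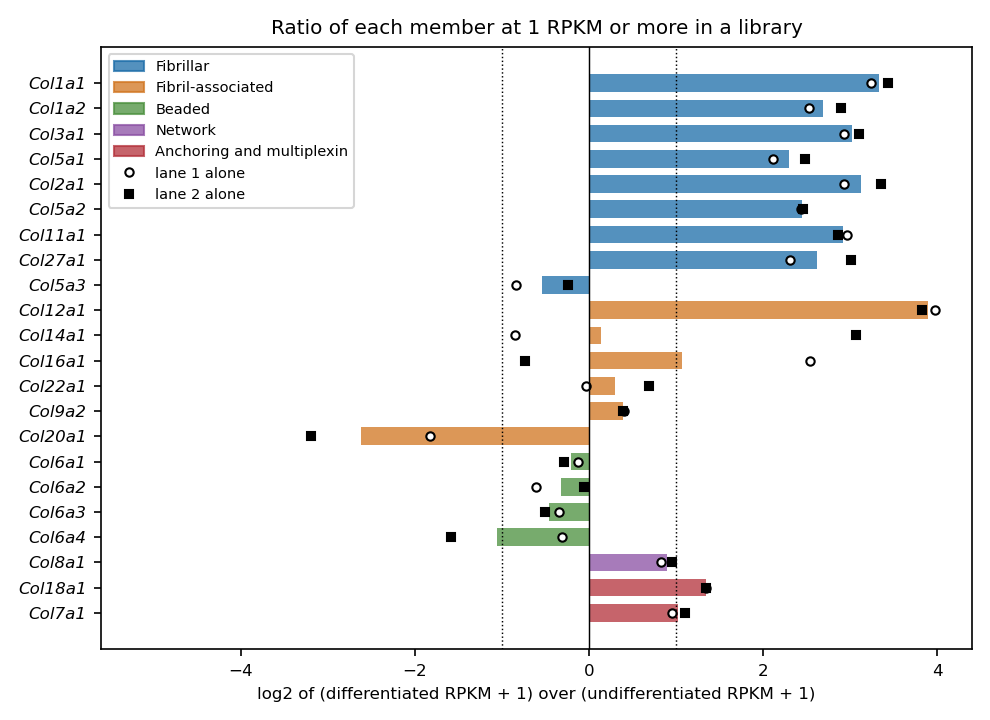
Log2 ratio of the 22 collagen genes with at least 1 RPKM in a library, as bars coloured by class. Circles and squares give the ratio in lane 1 and lane 2 alone and dotted lines mark a 2-fold difference. The 8 fibrillar genes that were higher stay past that line in both lanes, whereas Col14a1, Col16a1 and Col22a1 change sign between lanes.

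The fibril-associated class was divided, with 2 genes higher and 1 lower among 6 at the floor. These are few genes to set beside the 19.1% higher and 8.48% lower of all genes. Col12a1, whose product binds type I fibrils and bears many fibronectin-like domains (chromosome 9, 79446798 to 79566638), had the highest ratio of all members by gene value. It stood at 1.32 and 1.58 RPKM before and 35.5 and 35.4 RPKM after (3.90), and its level relative to Col1a1 was 0.118 before and 0.266 after.

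The other calls in this class rested on single lanes or on models that start inside the gene. Col16a1, which is found on fibrils of skin and cartilage, stood at 1.05 and 4.15 RPKM before and 11.0 and 2.10 RPKM after. Its log2 ratio of 1.06 was 2.55 in lane 1 and -0.73 in lane 2, so the lanes overlapped and disagreed in sign. Col14a1, a relative of Col12a1 (chromosome 15, 55139305 to 55352358), stood at 16.8 and 0.338 RPKM before and 8.91 and 10.2 RPKM after. The ratio of 0.14 from the means combined -0.84 in lane 1 with 3.07 in lane 2. Col20a1, a further fibril-associated gene (chromosome 2, 180721240 to 180752245), was the lower one, at 4.51 and 11.1 RPKM before and 0.557 and 0.317 RPKM after (-2.61). Another row, 9230112E08Rik, overlaps Col20a1 over 740 bases on the same strand (3.23 and 1.82 RPKM). What share of reads that row could take was not tested.

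The promoter table divides each gene by first exon and shows where these values come from. In Col14a1 the group at the most upstream start, which holds the RefSeq transcript, stood at 0.212 and 0.225 RPKM before and 7.20 and 7.80 RPKM after, a log2 ratio of 2.80 in which the lanes agreed (2.76 and 2.85). A second group starting 141 kb downstream held a single transcript model and carried 16.6 RPKM of lane 1 before differentiation and 0.113 RPKM of lane 2. By the upstream group Col14a1 was higher, with no overlap between lanes. Within that group the RefSeq transcript itself held 0.0074 and 0.803 RPKM, and 2 other models held most of the rest. The gene value of Col14a1 before differentiation was dominated by 1 lane of the inner model.

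Col16a1 showed the same kind of split. Its RefSeq group stood at 0.384 and 0.523 RPKM before and 1.55 and 2.00 RPKM after, and the lanes did not overlap. The log2 ratio of that group, 0.93, was just under the 2-fold limit, but without the pseudocount the group was 3.91-fold higher. A group starting 20.7 kb downstream held 9.38 RPKM of lane 1 after differentiation and none of lane 2, and one starting 7.17 kb downstream held 3.62 RPKM of lane 2 before and none of the other lanes. In Col20a1 the group starting 26.7 kb downstream carried 78.4% of the gene value before differentiation, and the RefSeq group alone stood at 0.832 and 1.78 RPKM before and 0.258 and 0.206 RPKM after (-0.90). With the pseudocount the lower call of Col20a1 thus depended on the inner group. The lanes of both groups lay lower after differentiation, and without the pseudocount the RefSeq group too was more than 2-fold lower (1.30 and 0.232 RPKM).

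Over the first exons that hold a RefSeq transcript, present for 34 of the 36 members, 12 collagens were higher and none was lower. Of these, 11 were among the 12 found by gene value, with Col14a1 in and Col16a1 out, and 20 members were at the floor. Col3a1, Col7a1, Col11a1, Col12a1, Col14a1 and Col27a1, all counted higher, reached the floor by this measure only in the differentiated library. So did Col8a1, Col9a2, Col16a1 and Col22a1, which lay inside the limits. Col5a3 and Col20a1, also inside the limits, passed only through the undifferentiated library. The direction of all these genes was thus built into their passing. By that rule 23.1% of 11876 genes were higher and 7.52% were lower. This measure was added after the values of Col14a1 were seen.

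Within the genes whose calls did not change, downstream models also took varying shares. In Col12a1 a model starting 79.0 kb downstream held 66.1% of the gene value after differentiation, and both first exons were higher. Before differentiation the lanes disagreed, with the downstream model at 0 and 1.26 RPKM and the RefSeq group at 1.32 and 0.321 RPKM. The upstream, RefSeq first exon stood at 0.822 and 12.0 RPKM. Its log2 ratio of 2.84 is below that of Col1a1 (3.34 by the same measure). Without the pseudocount the order was the reverse, 14.6-fold for Col12a1 and 10.8-fold for Col1a1. In Col5a1 a model starting 131 kb downstream held 1.85% of the value before and 36.1% after, at 0.0653 and 7.66 RPKM, while the upstream first exon was at 3.46 and 13.5 RPKM (1.70). In Col27a1 the RefSeq group held 76.8% of the value before and 28.8% after, at 0.945 and 0.0877 RPKM in the lanes before and 2.45 and 2.89 RPKM in those after. By lane that share was 88.7% and 31.4% before. Its log2 ratio of 1.27, against 2.62 by gene value, was 0.83 in lane 1, under the limit, and 1.84 in lane 2. In Col3a1 a model starting 16.1 kb downstream held 74.5% before and 72.0% after. How reads of shared exons are divided among models is not given in the sources used here, so these shares are no direct count of starts.

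**Figure D3:**
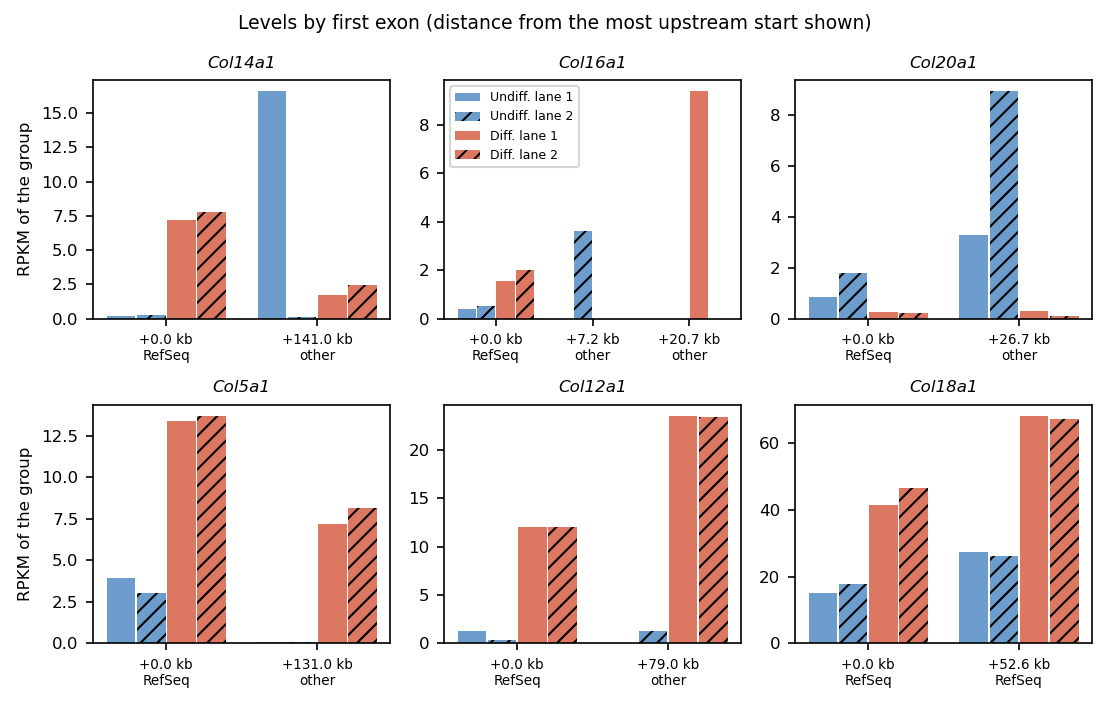
RPKM of each lane by first exon for 6 collagen genes, with the distance of each start from the most upstream one and whether the group holds a RefSeq transcript (groups with at least 1 RPKM in a lane are drawn). Lanes of a library agree in Col5a1 and Col18a1, while single lanes make up the downstream groups of Col14a1 before and Col16a1 after differentiation.

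The rest of the fibril-associated class was weak. Col9a2, a chain of type IX collagen, which coats cartilage fibrils, stood at 0.840 and 1.32 RPKM before and 1.44 and 2.04 RPKM after (0.40), and its partners Col9a1 and Col9a3 stayed below the floor. Type IX needs 3 different chains, and Col9a1 was almost absent, at 0.0159 and 0.0152 RPKM. Col22a1, a collagen of tissue junctions, stood at 2.03 and 0.979 RPKM before and 1.95 and 2.20 RPKM after (0.30), with overlapping lanes. A group starting 79.8 kb downstream held 1.43 RPKM of its lane 1 before and none of the other lanes. The RefSeq group of Col22a1 stood at 0.345 and 0.485 RPKM before and 1.46 and 1.32 RPKM after, without overlap. Its log2 ratio was 0.76, and without the pseudocount it was 3.35-fold higher. Col19a1 was listed at 0 in both undifferentiated lanes and at 0.240 and 0.248 RPKM after.

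Beaded collagens at the floor, 4 genes, included none that was higher and 1 that was lower, with a median log2 ratio of -0.38. Type VI is a trimer of the Col6a1 chain, the Col6a2 chain and a longer chain, most often that of Col6a3. Col6a1 stood at 4.60 and 4.66 RPKM before and 4.12 and 3.63 RPKM after (-0.21). Col6a2, which lies 85.2 kb from Col6a1 on the same strand of chromosome 10, stood at 2.98 and 2.81 RPKM before and 1.61 and 2.65 RPKM after (-0.32). Lanes did not overlap for either gene, yet the differences were small and less than 2-fold. The level of Col6a1 was 1.60 times that of Col6a2 before and 1.82 times after.

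Col6a3 stood at 1.44 and 4.56 RPKM before and 0.922 and 2.92 RPKM after (-0.45). A predicted gene, Gm6497, is annotated across all 77095 bases of Col6a3 on the other strand, at 69.3 and 54.4 RPKM, and what share of reads it could take was not tested. Lanes of Col6a3 were 3.16-fold and 3.17-fold apart within the libraries. Col6a4, an alternative long chain, was counted lower, at 0.965 and 3.25 RPKM before and 0.582 and 0.420 RPKM after (-1.05). That call was lost in lane 1 alone (-0.31), and its RefSeq first exon was below the floor at 0.285 and 0.0444 RPKM. Col6a6 and the type VI relative Col28a1 were below the floor.

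Network and transmembrane collagens were scarce in both libraries. Of the network genes only Col8a1, a chain of the hexagonal lattice of vessel walls and corneal basement membrane, reached the floor. It stood at 0.435 and 0.364 RPKM before and 1.55 and 1.64 RPKM after, above the 2-fold limit without a pseudocount and just under it with one (0.89). Its partner Col8a2 stood at 0.155 and 0.315 RPKM, and Col10a1, made by hypertrophic cartilage, at 0.0569 and 0.0274 RPKM. The 4 transmembrane collagens, Col13a1, Col17a1, Col23a1 and Col25a1, which are cell-surface proteins of epithelia, muscle and nerve, were all below 1 RPKM, the highest being Col23a1 at 0.454 and 0.834 RPKM. Col17a1, a hemidesmosome component of stratified epithelium, stood at 0.458 and 0.343 RPKM. The 14 members below the floor, with library levels from 0 to 0.834 RPKM, had log2 ratios between -0.36 and 0.34.

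**Figure D4:**
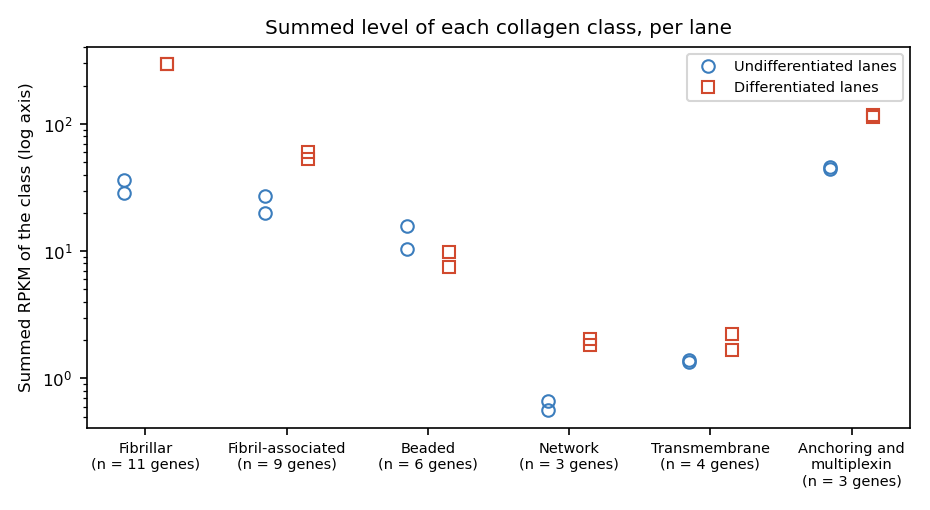
Summed RPKM of each collagen class in each lane on a log axis; each symbol is 1 lane. The fibrillar sum is 28.5 and 36.5 RPKM before and 294.2 and 295.0 after differentiation, while the beaded sum is 10.4 and 15.8 before and 7.49 and 9.92 after.

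Col18a1 was the most abundant member before differentiation and the second after it. It encodes the multiplexin of basement membranes whose C-terminal fragment is endostatin (chromosome 10, 76514923 to 76629293). Its level was 42.6 and 44.2 RPKM in the undifferentiated and 109.8 and 114.1 RPKM in the differentiated lanes, 2.58-fold higher (log2 ratio 1.35). It made up 37.4% of the summed level of the members before and 23.3% after. The upstream start stood at 16.4 and 44.2 RPKM and the downstream start, 52.6 kb into the gene, at 26.7 and 67.8 RPKM. Shares were nearly the same in both libraries, 37.8% and 39.5% for the upstream start, and the log2 ratios of the starts were 1.37 and 1.31. The 3′ part of Col18a1 overlaps Slc19a1 on the other strand over 8825 bases, and that gene stood at 4.60 and 7.55 RPKM.

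Col7a1, the anchoring fibril collagen of skin (chromosome 9, 108855631 to 108886920), stood at 1.35 and 1.07 RPKM before and 3.56 and 3.46 RPKM after (1.03, with 0.96 in lane 1 and 1.11 in lane 2). Col15a1, the multiplexin of muscle and vessels, was at 0.347 and 0.325 RPKM. Calls of Col7a1 and Col16a1 were lost when ratios were centred on the median of all genes. Col18a1, Col12a1 and the 8 fibrillar genes kept theirs. That left 10 of 22 members at the floor higher, beside 16.1% of all genes.

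Members differ in gene structure as they do in class. Fibrillar genes encode the helix in exons of 54 bases and other multiples of 9, which is 1 or more repeats of Gly-X-Y. In the longest coding model of GENCODE M21, 47.0% of the coding exons of the 11 fibrillar genes were 54 bases long and 82.4% were multiples of 9 bases. Over all 22500 coding genes these shares were 0.672% and 14.5%. The 8 fibrillar genes that were higher and the 3 that were not overlapped on this measure: Col24a1 had 88.3% and Col11a2 78.8%, against 86.3% for Col1a1 and 75.8% for Col5a1. Multiples of 9 made up 53.0% of fibril-associated and 48.6% of beaded exons. Col12a1, which had the highest ratio by gene value, had the lowest share of the fibril-associated genes, 21.5%, in 65 coding exons. The 3 network genes have 2 coding exons each, neither a multiple of 9 bases.

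**Figure D5:**
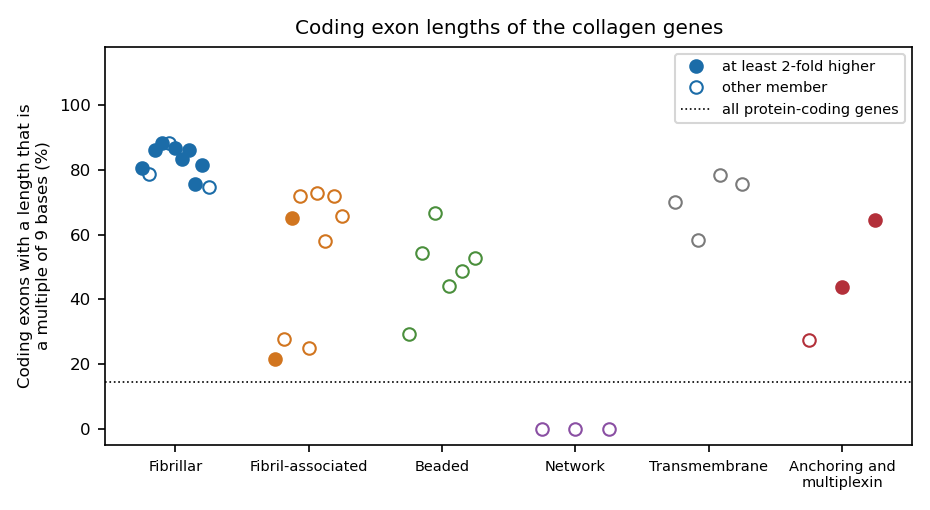
Share of coding exons whose length is a multiple of 9 bases, 1 point per collagen gene by class, with filled points for genes counted as higher after differentiation. Fibrillar genes lie between 74.6% and 88.5% whether or not they were higher, and the dotted line marks 14.5% over all coding genes.

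The enzymes and chaperones that make any collagen chain were higher as well. Of 16 genes for hydroxylation, glycosylation and folding of chains 15 reached the floor and all 15 were higher, with a median log2 ratio of 2.59. Among all genes at the floor 19.1% were higher. The weakest of these calls, Leprel2, rested on lane 1, at 6.32 and 4.42 RPKM before and 18.9 and 5.41 RPKM after. Among the strongest were Serpinh1, the collagen chaperone (10.7 and 1003 RPKM, 6.42), and P4ha2, a prolyl hydroxylase subunit (8.65 and 143.0 RPKM, 3.90). These proteins also serve type IV collagen, whose 6 genes summed to 18.8 RPKM before and 2725 RPKM after. That is 0.162 times the sum of the other collagens before and 5.68 times after, mostly Col4a1 and Col4a2 (1755 and 956.8 RPKM).

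Genes that act on fibrils after secretion were mixed. Out of 13 processing and crosslinking genes 11 reached the floor, and 5 of them were higher (median 0.92). The share over all genes at the floor, 19.1% higher, stands beside this count and those of the partners and receptors, which are short lists. Adamts2, Tll1, Adamts3 and Loxl3 reached the floor only in the differentiated library, as did P4ha3 of the chain-making list and Dcn, Twist2, Prrx1, Sox9, Thbd and Pth1r of the lists below and above, so their direction was built into their passing. Adamts14, Ddr2 and Cd34, like Acan, reached it only in the undifferentiated library, with the opposite direction built in. Pcolce2, an enhancer of procollagen cleavage, was the lower one (11.3 and 1.55 RPKM). Bmp1, which removes the C-propeptide of fibrillar procollagens, stood at 1.53 and 1.24 RPKM before and 30.1 and 29.9 RPKM after (3.70), and Loxl2, a lysyl oxidase that also crosslinks type IV, at 9.73 and 116.5 RPKM (3.45). Of 8 fibril partners 5 reached the floor and 2 were higher, Thbs2 (1.42 and 5.11 RPKM, 1.33) and Dcn, the fibril-binding proteoglycan decorin (0.673 and 2.82 RPKM, 1.19). Of 9 collagen receptors 4 reached the floor and 2 were higher, Ddr1 (5.43 and 35.4 RPKM, 2.50) and Itgb1, the shared β1 integrin subunit (59.1 and 299.8 RPKM, 2.32). The α subunits that make it a collagen receptor, Itga1, Itga2, Itga10 and Itga11, were all below 1 RPKM, and Itga1 was at 0.103 and 0.801 RPKM.

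Markers of cells that could supply the fibrillar collagens moved unevenly with them. Of 13 fibroblast markers 11 reached the floor and 3 were higher, beside 19.1% of all genes. None was lower and the median log2 ratio was 0.19. Their sum was 23.1 and 23.4 RPKM before and 70.9 and 72.4 RPKM after, and most of the gain was Pdgfra (1.14 and 49.2 RPKM, 4.55), which primitive endoderm also expresses. Twist2 was at 0.354 and 2.45 RPKM (1.35). Thy1, Fap and S100a4 were at 3.43, 6.43 and 2.62 RPKM before and at 2.13, 3.93 and 1.59 RPKM after. Postn and Cd34 were at 2.69 and 1.22 RPKM before and at 1.63 and 0.497 RPKM after. Prrx1, Pdgfrb and Mfap5 were at 0.982, 1.58 and 2.00 RPKM before and at 2.26, 2.64 and 2.43 RPKM after. Without the pseudocount Cd34 was more than 2-fold lower and Prrx1 more than 2-fold higher. The fibroblast proteoglycan Lum and Dpt were near or at 0 in both libraries. Parietal endoderm markers, all 8 of them, were higher (sum 167.6 and 5281 RPKM), with Pth1r (6.61) and Lama1 (5.69) at the top. Smooth muscle markers were higher in 4 of 5 (sum 530.2 and 2729 RPKM), led by Tagln (6.15) and Cnn1 (4.05). The part of any of these cell types, or of feeder cells left in the undifferentiated harvest, in the collagen levels was not tested.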

How the data were processed

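Poly(A) RNA of 1 undifferentiated and 1 differentiated culture of E14 ES cells was read as 36 bp single-end reads, per the labels' protocols, and build mm9 is named in the submitters' processing notes. The authors deposited gene, promoter and transcript tables (34376, 55830 and 83402 rows) with a value for each of 4 lanes. The tables name no unit, and the deposited values were read as RPKM because in single-exon genes 82.4% to 82.6% of low values times length fell within 5% of a read of whole multiples of a constant. That constant gave the read numbers of the lanes. The deposited averages equal the lane means, and each gene value is the sum of its transcripts. No aligner, counting program or annotation is given in the sources used here.

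Where a symbol had several rows (488 rows in all), its row of highest mean represented it. The pseudocount was 1, the floor 1 RPKM in either library and the limit 2-fold. Every member at the floor is named, and of each other list the 2 genes with the largest absolute ratio, while further genes of those lists were named after their values were seen. First exons are named where a gene of at least 5 RPKM in a library changed a share by 30 percentage points or had 2 groups of at least 20%. Those of Col6a4 and Col22a1, genes below that level, are named as well. Members, classes and lists were chosen with earlier results of these data known. The 5 genes with printed promoters, the exon lengths and the RefSeq first exons were chosen after seeing the data. Promoter windows and other names of genes are from RefSeq (GRCm38.p6), and exon lengths from GENCODE M21, with no conversion of coordinates. The depth estimate and the calls were tested on simulated data. Python 3.11.15, pandas 2.3.3 and numpy 2.4.6 were used. With 1 library per group no p-value was computed.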

Additional observations from a re-analysis of the deposited data

How the results depend on the processing

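No paired analysis was possible because each condition has 1 library, and no library could be left out. The fibrillar genes counted higher were 8 in every setting tried, also at a 4-fold limit. The setting with lanes within 2-fold was applied only to a library with a mean of at least 1 RPKM. Col27a1 thus stayed in, although its undifferentiated lanes (mean 0.673 RPKM) were 3.82-fold apart. The number of members counted higher, 12, lay between 9 and 13. It was 9 at 4-fold, where 5.45% of all genes were higher, and 13 at 1.5-fold, where 31.6% were. After trimmed-mean scaling it was 10, beside 16.0% of all genes, and with equal column sums 13, beside 24.4%. The shares of all genes that were lower in these settings were 1.87%, 20.4%, 11.5% and 5.91%. The 2 lower members became 1 at a floor of 5 RPKM, with equal column sums, in lane 1 alone and at 4-fold (Col6a4 lost), and 0 with lanes within 2-fold and over RefSeq first exons, where Col20a1 was lost too. By the highest single transcript 2 were lower, with Col6a4 out and Col14a1 in. With fewer genes of low ratio at the floor the median of 1.05 became 2.62 at 5 RPKM and 2.37 with lanes within 2-fold. It was 0.26 with no floor, 1.41 and 1.23 with pseudocounts of 0.1 and 0.5, 0.92, 0.94 and 0.91 after median, upper-quartile and trimmed-mean scaling, and 1.25 with equal column sums. Lane 1 gave 1.34, lane 2 1.23, the highest single transcript 1.31 and RefSeq first exons 1.31. Over all genes the median was 0.12 in the main setting and 0.08 at a floor of 5 RPKM. It was 0.11 with lanes within 2-fold and 0.27 over RefSeq first exons. Median, upper-quartile and trimmed-mean scaling and equal column sums moved the median of all genes by -0.12, -0.11, -0.14 and 0.21. The ratio of Col16a1 reversed to -0.73 in lane 2 alone. Of all genes past 2-fold, 69.3% were higher as deposited, 58.1% after trimmed-mean scaling and 80.5% with equal sums. Depth limits most the members near 0 RPKM, such as Col9a1 and Col10a1.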
